A study of Homo sapiens with 6 samples.

Results

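The lysosome and autophagy genes described here are 40 genes chosen by name: cathepsins, glycosidases and other acid hydrolases, their activator proteins, lysosomal membrane proteins, subunits of the proton pump, the transcription factors TFEB and TFE3, and genes that build or load autophagosomes. They were chosen with earlier results of these data known, so the counts set beside all genes below are a description only. All 40 symbols were found in the deposited expression table of 27381 genes. RNA was sequenced from DU145 cells, an established human line of metastatic castration-resistant prostate cancer. The labels give 2 libraries to scramble cells (Scr), which received Cas9 with a scrambled sgRNA, 2 libraries to cells in which CRISPR/Cas9 had been used to knock out CD24 (CD24 KO) and 2 libraries to cells treated likewise for RCC2 (RCC2 KO). Cas9 and GFP came from the same plasmid in all of these cells, and GFP-positive cells were sorted. The knockout lines were grown as clones, and the paper speaks of clones for the scrambled control as well. A property of a clone, of Scr or of a knockout, and the loss of a gene therefore cannot be told apart. The series' design text describes sorting for different levels of knockout, while the labels give no level. The authors deposited 1 value per gene and condition in FPKM (fragments per kilobase of transcript, scaled to the mapped fragments of a library), with the libraries of a condition already combined. The RCC2 KO column carries a name that, among the labels, belongs to its first library alone, so this column may hold 1 library or both. No SD between libraries and no test could therefore be given, and no difference between the columns has a replicate check. Nothing in the labels says whether the libraries came from separate cultures.

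Lysosomes are acidic organelles in which hydrolases break down proteins, glycans and lipids that arrive by endocytosis or in autophagosomes. The proton pump of the membrane (V-ATPase) keeps the lumen acidic, which activates the cathepsins, and heavily glycosylated proteins such as LAMP1 and LAMP2 line the membrane. TFEB and TFE3 bind a motif named CLEAR in the promoters of many of these genes, and mTORC1 keeps the factors in the cytosol when nutrients are plentiful, so their activity is set in large part by location and not by the amount of their RNA. Secreted cathepsins are known for cutting extracellular matrix around tumor cells.

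The RNA of CD24 and of RCC2 was not lower in its own knockout column than in Scr, and each direction below belongs to the libraries as labelled. The paper reports that its knockout DU145 lines were checked with flow cytometry, Western blots and Sanger sequencing. An RNA value does not show whether a gene was edited or its protein lost. For CD24, the Scr value of 93.2 FPKM was below both the 309 FPKM of the CD24 KO column and the 214 FPKM of the RCC2 KO column. The table places CD24 on chromosome Y from 21034387 to 21438350, so it is uncertain how far this value measures the targeted gene. For RCC2, the lowest value was the 14.2 FPKM of the CD24 KO column, against 37.8 FPKM (Scr) and 41.8 FPKM (RCC2 KO). The columns sum to 451272 (Scr), 388764 (CD24 KO) and 447005 FPKM (RCC2 KO), and no depth could be derived from them. All 5 epithelial markers were present, with a summed level of 799 FPKM in Scr, 500 FPKM in the CD24 KO column and 843 FPKM in the RCC2 KO column. The lower sum in CD24 KO came mainly from KRT8 and KRT18, which share 1 merged position and were at 149 and 141 FPKM there against 336 and 293 FPKM in Scr. EPCAM was lower as well, at 44.9 against 58.9 FPKM, whereas CDH1 (52.6 against 27.9 FPKM) and KRT19 (113 against 83.5 FPKM) were higher in CD24 KO than in Scr. The part of these differences in the results below was not tested. The luminal prostate markers KLK3 and KLK2 were listed at 0 in every column. Of 8 macrophage markers, 4 were listed at 0 in every column, and their summed level ranged from 1.76 to 2.61 FPKM. All 6 fibroblast markers were under 1 FPKM.

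Most of the 40 genes were abundant in DU145 cells. Their median level was 33.9 (Scr), 38.9 (CD24 KO) and 33.9 FPKM (RCC2 KO), against medians of 10.5, 10.2 and 10.5 FPKM over the genes compared, which are the 12822 genes with at least 1 FPKM in at least 1 column. Together the 40 genes took 0.628% of all FPKM in Scr, 0.964% in CD24 KO and 0.546% in RCC2 KO. The CD24 KO share also reflects the smaller sum of that column. In FPKM, the members summed to 2835 (Scr), 3746 (CD24 KO) and 2442 (RCC2 KO), so that CD24 KO was at 1.32 times Scr. PSAP, the precursor of the saposins that present sphingolipids to their hydrolases, held the highest place, with 22.9% of the members' summed FPKM in Scr. It ranked 56 among the genes compared in Scr, 27 in CD24 KO and 84 in RCC2 KO. SQSTM1, CTSB, CTSL, CTSD and PPT1 followed in Scr, each above 100 FPKM. At the other end stood TFEB, IDUA and CTSS, at 2.02, 1.07 and 0.509 FPKM in Scr. CTSS, a cysteine protease of antigen-presenting cells, stayed under 1 FPKM in every column, with 0.949 FPKM as its highest value, in CD24 KO, and was not among the genes compared.

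**Figure D1:**
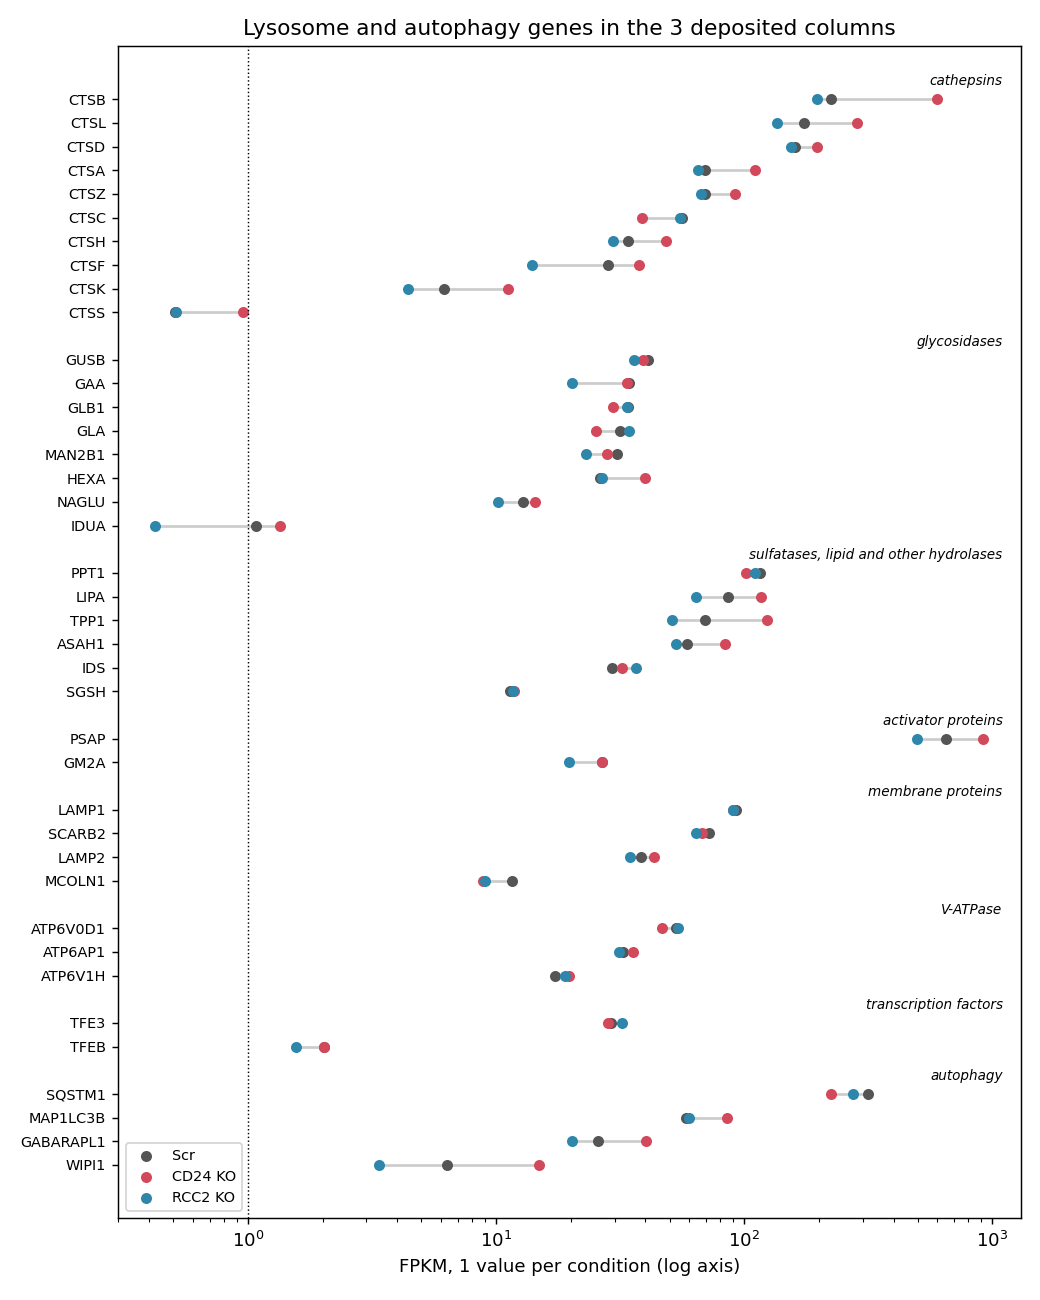
FPKM (log axis) of 39 of the 40 genes, 1 point for each of the columns Scr, CD24 KO and RCC2 KO, grouped by role and ordered by Scr; the dotted line marks 1 FPKM, and NEU1 is left out because it was listed at 0. Levels span from PSAP at 914 FPKM in CD24 KO to IDUA at 0.419 FPKM in RCC2 KO, and the points of CTSB and WIPI1 lie far apart while those of LAMP1 nearly coincide.

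NEU1, the lysosomal sialidase, was listed at 0 in all 3 columns. The table places it on chromosome 6 from 31826829 to 31830709 (positions of the table are read as hg19, a build that the sources used here do not state), within the major histocompatibility complex. Of the 45 other genes that the table places within 200 kb of it, 33 (73.3%) were also listed at 0 in every column, against 31.9% of the whole table, and the highest value among them was 0.817 FPKM. The genes CLIC1, VARS, LSM2 and NELFE, chosen after their values had been seen because nearly all cells use them, were among those listed at 0. NEU1 is therefore given as a listing only, and 38 of the 40 genes were compared.

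TFEB and TFE3 differed little between the columns. TFE3 was at 29.1 (Scr), 28.2 (CD24 KO) and 32.0 FPKM (RCC2 KO). TFEB was at 2.02, 2.01 and 1.56 FPKM in the same order. TFE3 RNA was thus far more abundant than TFEB RNA in every column. On the scale used for all differences here, log2 of FPKM plus a pseudocount of 1, the RCC2 KO difference from Scr was -0.24 for TFEB and 0.13 for TFE3. The median of both factors was -0.03 in CD24 KO and -0.05 in RCC2 KO, and the former turned positive with centring and with equal sums and the latter with a pseudocount of 5. On this scale the differences of low genes such as TFEB are understated.

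The CLEAR motif was looked for in the RefSeq promoters (GRCh38.p14, 250 bases before to 50 bases after each start), because it is where TFEB and TFE3 bind. A promoter was at hand for 30 of the 40 genes. CTSB, CTSK, CTSS, HEXA, NAGLU, SGSH, ASAH1, PSAP, LAMP2 and ATP6V1H were not among them. The CLEAR core TCACGTGA occurred in the promoters of 5 genes (16.7%) against 1.18% of the 27305 symbols with a promoter. The longer CLEAR palindrome, which is the core with G before it and C after it, occurred in GAA and MCOLN1, 2 of the 30 genes with a promoter (6.67%), against 0.421%. The E-box CACGTG, which lies within the core, occurred in 8 genes (26.7%) against 8.77%. All of these motifs read the same on both strands. The stretches that hold the core before the start are shown for these 5 genes, with each core or palindrome in capitals; a further match in LAMP1 that runs across the start is not shown. They are written from 5′ to 3′ on the strand of the gene, at chr20:45891294-45891331 (CTSA), chr17:80101488-80101572 (GAA), chr13:113297195-113297232 (LAMP1), chr19:7522567-7522623 (MCOLN1) and, on the minus strand, chr16:67481195-67481232 (ATP6V0D1).
CTSA: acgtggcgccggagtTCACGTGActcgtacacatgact
GAA: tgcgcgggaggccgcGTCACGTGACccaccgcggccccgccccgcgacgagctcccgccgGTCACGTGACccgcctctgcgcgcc
LAMP1: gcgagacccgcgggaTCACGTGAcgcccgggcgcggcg
MCOLN1: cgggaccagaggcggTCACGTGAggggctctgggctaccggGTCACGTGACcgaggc
ATP6V0D1: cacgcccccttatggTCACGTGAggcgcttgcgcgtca
GAA carries 2 palindromes, and MCOLN1 1 palindrome and 1 further core. These 5 genes had a median log2 difference of -0.05 between CD24 KO and Scr and of -0.10 between RCC2 KO and Scr. The 24 compared genes that have a promoter without the core had medians of 0.13 and -0.18. A match is a description of the letters in this window, and binding was not measured.

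In the libraries labelled CD24 KO, 8 of the 9 compared cathepsins were higher than in Scr, where 47% of all genes compared were higher, and in those labelled RCC2 KO all 9 were lower, where 50.6% of all genes were lower. The median log2 difference from Scr was 0.51 in CD24 KO and -0.18 in RCC2 KO, against -0.03 and -0.0036 over all genes compared. Summed over the 10 cathepsins, the level was 822 (Scr), 1420 (CD24 KO) and 722 FPKM (RCC2 KO). Without CTSB the sums were 599, 822 and 525 FPKM, so the order of the columns did not rest on CTSB. The cathepsins CTSV and CTSO belong to the wider set below and are not in these counts and sums. CTSV was lower in both knockouts, at 13.7 (Scr), 8.04 (CD24 KO) and 8.72 FPKM (RCC2 KO). Its log2 differences from Scr were -0.70 in CD24 KO and -0.59 in RCC2 KO. CTSO, at 4.81, 8.14 and 3.63 FPKM in the same order, was highest in CD24 KO and lowest in RCC2 KO.

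CTSB, a cysteine protease with both endopeptidase and carboxypeptidase activity, was at 223 (Scr), 598 (CD24 KO) and 197 FPKM (RCC2 KO). CD24 KO stood alone for this gene, at 2.68 times the Scr value, and CTSB moved from rank 228 among the genes compared to rank 49. The log2 difference from Scr was 1.42 in CD24 KO and -0.18 in RCC2 KO. The table places CTSB on chromosome 8 from 11700034 to 11725659. The 448 compared genes of that chromosome had a median log2 difference of 0.18 in CD24 KO, and the 9 compared neighbors within 1000 kb of CTSB one of 0.03, with 0.62 as the highest.

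CTSL, a cysteine endopeptidase, was at 174 (Scr), 286 (CD24 KO) and 136 FPKM (RCC2 KO). CTSK, the collagen-degrading cathepsin known from osteoclasts, was at 6.17, 11.1 and 4.43 FPKM in the same order. Both had their highest value in CD24 KO and their lowest in RCC2 KO, with log2 differences from Scr of 0.71 and 0.76 in CD24 KO and of -0.36 and -0.40 in RCC2 KO. GENCODE names 5 pseudogenes of CTSL, and the 2 that the table lists were at 0.

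CTSF, a further cysteine protease, differed from the others in that RCC2 KO stood apart. It was at 28.2 (Scr), 37.6 (CD24 KO) and 13.9 FPKM (RCC2 KO), with a log2 difference of -0.97 in RCC2 KO, just short of 2-fold on this scale. CTSC, the dipeptidyl peptidase that activates granule serine proteases, was the exception in CD24 KO, at 56.2 (Scr), 38.7 (CD24 KO) and 55.1 FPKM (RCC2 KO). Its log2 difference in CD24 KO was -0.53.

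The other cathepsins were also highest in CD24 KO and lowest in RCC2 KO. CTSA, a serine carboxypeptidase that also stabilizes β-galactosidase, was at 69.7 (Scr), 110 (CD24 KO) and 65.1 FPKM (RCC2 KO). CTSD, the main aspartic protease of the lysosome, was at 160, 197 and 154 FPKM. CTSH, an aminopeptidase, was at 33.9, 48.6 and 29.5 FPKM. CTSZ, a carboxypeptidase, was at 69.7, 91.6 and 66.9 FPKM. CTSA had the widest difference of these 4 genes in CD24 KO, with a log2 difference from Scr of 0.66, and in RCC2 KO the widest of their log2 differences from Scr was -0.19, for CTSH.

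**Figure D2:**
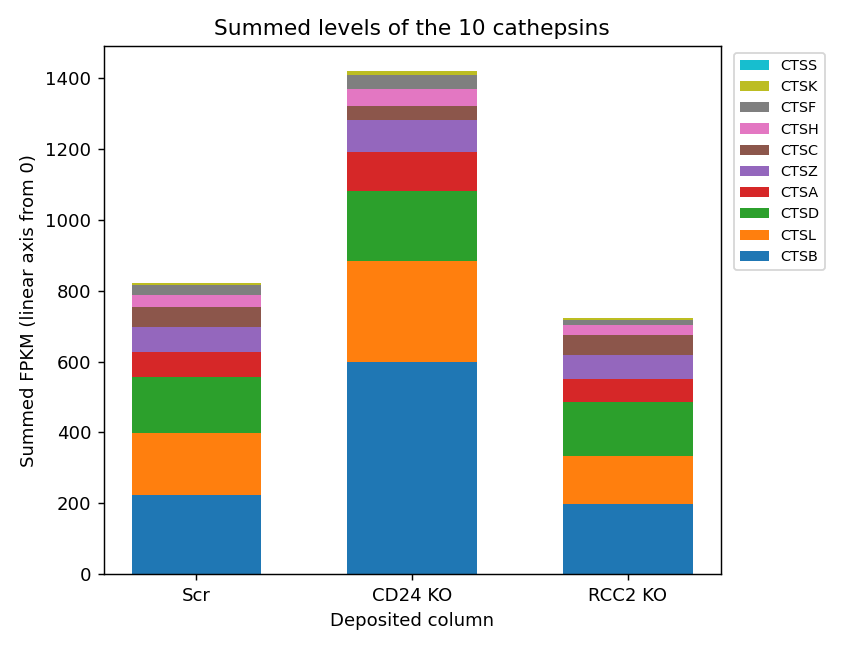
Stacked bars of FPKM (linear axis from 0) for the 10 cathepsins in each column. The bars reach 822 (Scr), 1420 (CD24 KO) and 722 FPKM (RCC2 KO), and CTSB accounts for the largest segment in each.

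The glycosidases, which remove sugars from glycoproteins, glycolipids and glycosaminoglycans, did not share this order. Their summed level was 212 (Scr), 211 (CD24 KO) and 184 FPKM (RCC2 KO). In CD24 KO, 3 of the 8 compared genes were higher and 5 lower than in Scr, against 47% and 52.9% of all genes. The median log2 difference was -0.04 and turned positive under 3 of the 7 alternative settings (quantile normalization, centring and equal sums). The median in RCC2 KO was -0.25, with 6 genes lower and 2 higher, against 50.6% and 49.3% of all genes.

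GAA, the acid α-glucosidase that digests glycogen, was, apart from the low IDUA, the glycosidase with the widest difference in RCC2 KO. It was at 34.3 (Scr), 33.8 (CD24 KO) and 20.2 FPKM (RCC2 KO), so that Scr and CD24 KO nearly coincided, and the log2 difference from Scr in RCC2 KO was -0.73. HEXA, the α subunit of β-hexosaminidase A, had the opposite layout, at 26.27 (Scr), 39.998 (CD24 KO) and 26.6 FPKM (RCC2 KO), with a log2 difference of 0.59 in CD24 KO. IDUA, which starts the breakdown of dermatan and heparan sulfate, was at 1.07, 1.35 and 0.419 FPKM, and its log2 difference of -0.55 in RCC2 KO ranged from -1.17 to -0.16 over the alternative settings.
None of the remaining glycosidases reached a 1.5-fold difference from Scr in either knockout. MAN2B1, the lysosomal α-mannosidase, was at 30.6 (Scr), 27.9 (CD24 KO) and 22.9 FPKM (RCC2 KO). NAGLU, a heparan sulfate glycosidase, was at 12.9, 14.3 and 10.2 FPKM. GLA, the α-galactosidase A, was at 31.7, 25.3 and 34.2 FPKM, and the table merges its position with those of HNRNPH2 and RPL36A. These 3 genes show no common order of the columns. GLB1, the lysosomal β-galactosidase, was at 34.0, 29.5 and 33.6 FPKM. GUSB, the β-glucuronidase, was at 40.9, 39.1 and 36.1 FPKM and is less certain, because GENCODE names 10 pseudogenes of it, of which 7 are in the table with values up to 5.996 FPKM.

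Among the sulfatases and lipid or peptide hydrolases, TPP1 and LIPA were highest in CD24 KO and lowest in RCC2 KO. TPP1, which removes tripeptides from the ends of proteins, was at 69.5 (Scr), 123 (CD24 KO) and 51.2 FPKM (RCC2 KO), with log2 differences of 0.82 and -0.43. LIPA, the acid lipase that frees cholesterol from its esters, was at 86.0, 117 and 64.0 FPKM, with log2 differences of 0.44 and -0.42. ASAH1, the acid ceramidase, was at 58.7, 83.5 and 53.1 FPKM. These genes resemble most cathepsins in the order of the columns.
IDS, the iduronate sulfatase, had its highest value in RCC2 KO, at 29.3 (Scr), 32.2 (CD24 KO) and 36.5 FPKM (RCC2 KO), and has 1 pseudogene in GENCODE. SGSH, the heparan sulfamidase, was nearly level at 11.4, 11.9 and 11.7 FPKM. PPT1, which removes palmitate from proteins, was at 115, 101 and 111 FPKM.

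Of the activator proteins, PSAP was at 650 (Scr), 914 (CD24 KO) and 497 FPKM (RCC2 KO). Its log2 difference from Scr was 0.49 in CD24 KO and -0.39 in RCC2 KO, and the columns again ran from CD24 KO to RCC2 KO. GM2A, the cofactor that lifts GM2 ganglioside to β-hexosaminidase A, was at 26.6, 26.7 and 19.6 FPKM, with Scr and CD24 KO together and a log2 difference of -0.42 in RCC2 KO.

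Most membrane proteins and the subunits of the proton pump were nearly level, with medians over the 4 membrane proteins of -0.07 in CD24 KO, which turned positive with quantile normalization and equal sums, and of -0.16 in RCC2 KO. LAMP1 was at 92.8 (Scr), 89.9 (CD24 KO) and 90.1 FPKM (RCC2 KO). LAMP2, which also receives substrates of chaperone-mediated autophagy, was at 38.5, 43.2 and 34.7 FPKM. SCARB2, the receptor that carries glucocerebrosidase to the lysosome, was at 71.9, 67.8 and 63.8 FPKM. No gene of these came near a 1.5-fold difference from Scr. MCOLN1, the calcium channel of the lysosomal membrane, was highest in Scr, at 11.6 FPKM against 8.86 FPKM (CD24 KO) and 9.05 FPKM (RCC2 KO), with log2 differences of -0.36 and -0.33.
For the V-ATPase, ATP6V0D1, a subunit of the membrane sector, was at 53.1 (Scr), 46.8 (CD24 KO) and 53.9 FPKM (RCC2 KO). ATP6V1H, a regulatory subunit of the cytosolic sector, was at 17.3, 19.7 and 19.0 FPKM. ATP6AP1, an accessory subunit needed for assembly, was at 32.4, 35.6 and 31.4 FPKM. The summed level of these 3 genes was 103 (Scr), 102 (CD24 KO) and 104 FPKM (RCC2 KO).

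The autophagy genes diverged from each other. WIPI1, which binds the phosphoinositide PI3P on forming autophagosomes, was at 6.36 (Scr), 14.9 (CD24 KO) and 3.37 FPKM (RCC2 KO). The log2 difference from Scr was 1.11 in CD24 KO and -0.75 in RCC2 KO, and -1.86 between the knockouts. With a pseudocount of 5 the difference in CD24 KO fell under 2-fold, to 0.81, and that between the knockouts was -1.25, less wide than the -1.58 of CTSB. The table merges the position of WIPI1, on chromosome 17 from 66255323 to 66597095, with those of 5 other genes, among them the much higher PRKAR1A, at 160, 192 and 141 FPKM, so its estimate is less certain than those of genes that stand alone. GABARAPL1, a ubiquitin-like protein conjugated to autophagosome membranes, followed the same order at 25.8, 40.02 and 20.3 FPKM. MAP1LC3B, which encodes the autophagosome marker LC3B, was at 58.3 (Scr), 85.3 (CD24 KO) and 59.8 FPKM (RCC2 KO). Its near copy MAP1LC3B2 was at 7.64, 14.6 and 8.20 FPKM, and fragments could have been divided between them.
SQSTM1, the cargo receptor p62 that is itself consumed by autophagy, ran the other way in CD24 KO, while in RCC2 KO it was lower than Scr, as WIPI1 and GABARAPL1 were. It was at 315 (Scr), 223 (CD24 KO) and 274 FPKM (RCC2 KO), with log2 differences of -0.50 and -0.20. SQSTM1 was thus lowest in CD24 KO, the column where WIPI1, GABARAPL1 and MAP1LC3B were highest. The table merges its position with those of MGAT4B and MRNIP.

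Over the 38 compared genes, few passed a 2-fold difference from Scr. In CD24 KO, CTSB and WIPI1 were at least 2-fold higher, 2 genes of 38, while 2.67% of all genes compared were at least 2-fold higher. No member was at least 2-fold lower in CD24 KO, where 3.03% of all genes were. In RCC2 KO no member passed 2-fold in either direction, where 0.406% of all genes were at least 2-fold higher and 0.796% lower. In either direction, 5.69% of all genes passed 2-fold in CD24 KO and 1.2% in RCC2 KO, and counts of 2 and 0 members are too small to be read against these shares.
At the lower minimum of 1.5-fold, 8 members were higher in CD24 KO (CTSA, CTSB, CTSK, CTSL, HEXA, TPP1, GABARAPL1 and WIPI1) and no member was lower, against 9.55% of all genes higher and 11.6% lower. In RCC2 KO, CTSF, GAA and WIPI1 were at least 1.5-fold lower and no member was higher, against 3.82% of all genes lower and 1.45% higher. By any amount, 24 members were higher than Scr in CD24 KO (30 with quantile normalization and 31 with equal sums), where 47% of all genes were, and 30 members were lower than Scr in RCC2 KO, where 50.6% of all genes were. The median log2 difference over the members was 0.15 in CD24 KO and -0.17 in RCC2 KO. Both sets of differences use the same Scr values.

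**Figure D3:**
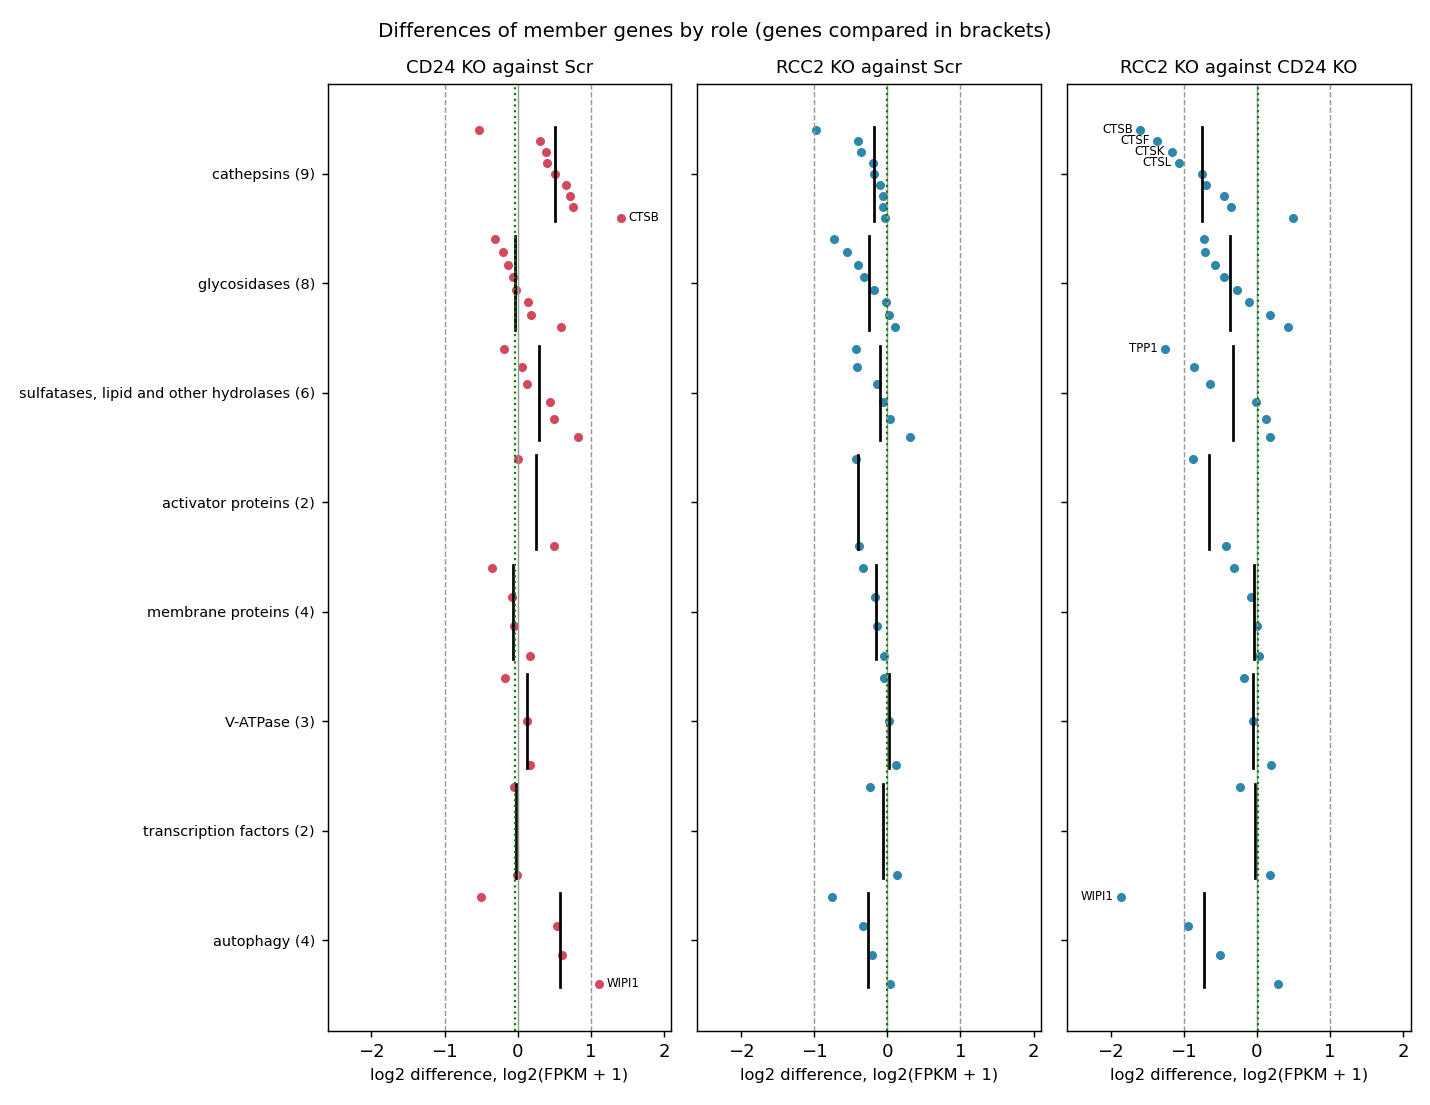
Differences on the log2(FPKM + 1) scale for the 38 compared genes by role, 1 point per gene, in CD24 KO against Scr, RCC2 KO against Scr and RCC2 KO against CD24 KO; black bars are medians of a role, dashed lines mark 2-fold, and the green dotted line is the median of all genes compared. Cathepsins center on 0.51 in the first panel and on -0.75 in the last, while the V-ATPase and the transcription factors stay near 0.

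RCC2 KO was also set directly against CD24 KO, which leaves Scr out. WIPI1, CTSB, CTSF, TPP1, CTSK and CTSL were at least 2-fold lower in RCC2 KO, 6 genes of 38, where 4.30% of all genes compared were at least 2-fold lower. No member was at least 2-fold higher, against 4.02% of all genes, and 8.31% of all genes passed 2-fold in either direction. The log2 differences of these 6 genes were -1.86, -1.60, -1.37, -1.25, -1.16 and -1.07. CTSK was no longer past 2-fold with a pseudocount of 5, at -0.77. At 1.5-fold, 14 members were lower and no member was higher, against 14.1% and 13.8% of all genes. By any amount, 28 members were lower and 10 higher, against 48.3% and 51.6% of all genes. The median difference was -0.39 over the members and 0.02 over all genes compared.
Split by role, the 23 compared hydrolases had a median difference of -0.57 between the knockouts and the other 15 genes one of -0.18.

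A wider set of 124 genes of the same pathways, sorted into 7 lists, was examined in the same way. Of these, 120 were compared. In CD24 KO 1 of them was at least 2-fold higher and 1 at least 2-fold lower, against 2.67% and 3.03% of all genes. In RCC2 KO no gene of the wider set passed 2-fold, against 1.2% of all genes in either direction. By any amount, 67 were higher and 53 lower in CD24 KO, against 47% and 52.9% of all genes, with a median log2 difference of 0.04. In RCC2 KO, 42 were higher and 78 lower, against 49.3% and 50.6% of all genes, with a median of -0.09. Between the knockouts, 47 were higher and 73 lower in RCC2 KO than in CD24 KO, against 51.6% and 48.3% of all genes. The median there was -0.11. The CD24 KO median of the wider set thus lay closer to that of all genes than the median of the 40 genes did.

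Among the 27 compared genes listed as other hydrolases, 14 were higher and 13 lower in CD24 KO, against 47% and 52.9% of all genes. In RCC2 KO, 23 of them were lower and 4 higher, against 50.6% and 49.3% of all genes, the median log2 difference being -0.27. The list also holds NPC2, a cholesterol-binding protein that is not a hydrolase. NPC2, at 139.1 (Scr), 184 (CD24 KO) and 139.5 FPKM (RCC2 KO), is counted as higher in both knockouts. At 1.5-fold, 1 of these hydrolases was higher and 2 were lower in CD24 KO, against 9.55% and 11.6% of all genes. In RCC2 KO, 2 were at least 1.5-fold lower and none was higher, against 3.82% and 1.45% of all genes. MANBA, the β-mannosidase, was at 8.23 (Scr), 12.3 (CD24 KO) and 4.93 FPKM (RCC2 KO), a log2 difference of -1.16 between the knockouts.

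Of the 17 other membrane proteins, 9 were higher and 8 lower in CD24 KO, against 47% and 52.9% of all genes. In RCC2 KO, 8 were higher and 9 lower, against 49.3% and 50.6% of all genes. NPC1, which exports cholesterol from the lysosome, stood apart from them at 59.5 (Scr), 145 (CD24 KO) and 50.1 FPKM (RCC2 KO), a log2 difference from Scr of 1.27 in CD24 KO. The 14 other V-ATPase subunits had a median of -0.14 for CD24 KO, positive with quantile normalization and with equal sums, and one of -0.01 for RCC2 KO, positive with equal sums. The 10 genes of enzyme sorting, which direct hydrolases to the lysosome through mannose 6-phosphate, had medians of -0.08 and -0.10, the former positive with equal sums.

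In the autophagy machinery, 21 of 29 genes were higher in CD24 KO, against 47% of all genes, and 21 were lower in RCC2 KO, against 50.6% of all genes, with medians of 0.08 and -0.13. WDR45, a relative of WIPI1, was at 8.92 (Scr), 16.7 (CD24 KO) and 6.38 FPKM (RCC2 KO), and so had the same order of columns as WIPI1. Of 8 autophagy receptors, 6 were higher in each knockout, where 47% (CD24 KO) and 49.3% (RCC2 KO) of all genes were. BNIP3, a mitophagy receptor known to be induced by hypoxia, was at 43.4, 17.7 and 45.2 FPKM, with a log2 difference of -1.25 in CD24 KO. The 15 compared genes of TFEB and mTORC1 control had a median of -0.02 against Scr in CD24 KO and of -0.01 against Scr in RCC2 KO, and each of these turned positive under 2 of the alternative settings.

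**Figure D4:**
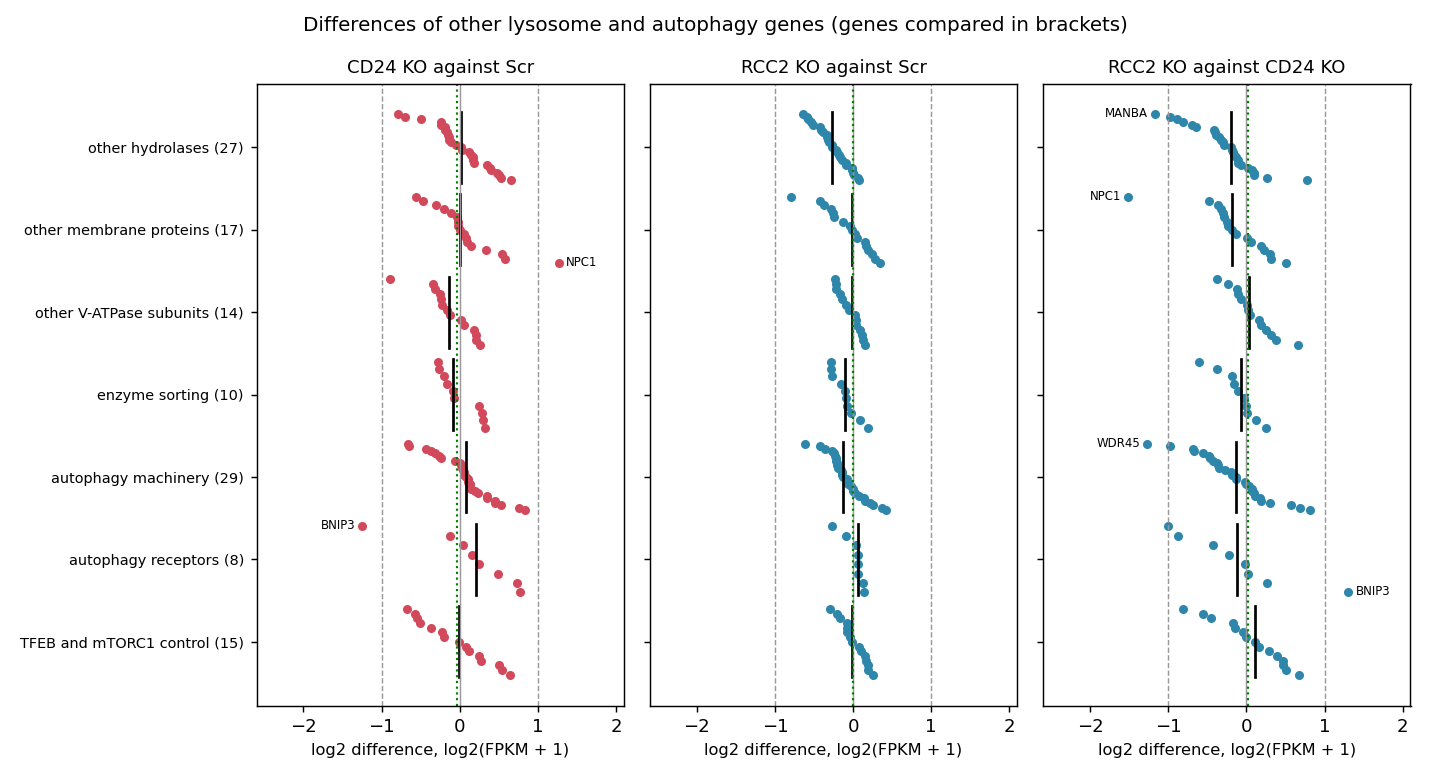
Differences on the log2(FPKM + 1) scale for the 120 compared genes outside the 40, 1 point per gene, by list and comparison; black bars are medians of a list, dashed lines mark 2-fold, and the green dotted line is the median of all genes compared. Only NPC1, BNIP3, MANBA and WDR45 pass 2-fold in any panel, and the other hydrolases center on -0.27 in RCC2 KO against Scr.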

How the data were processed

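The authors deposited 1 table of FPKM values with 3 columns, each combining the libraries of a condition. The submitters' processing notes name HISAT, StringTie, Cufflinks and GATK without versions, and the build is not given in the sources used here. Only 15.8% of the 24864 symbols shared uniquely with GENCODE 29 lay at their GRCh38 positions, and the names of the chromosome 6 haplotypes have the hg19 form, so positions were read as hg19 and starts were written from 1. The labels name an RNA kit for total RNA and the paper a stranded mRNA kit.

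Genes with at least 1 FPKM in at least 1 column (12822 genes) were compared as log2(FPKM + 1). Planned tests needed a value per library and could not be run. Calls are differences of at least 2-fold, beside the share of all genes past it. The 40 genes and all lists were chosen with earlier results of these data known. All 40 genes were named, and of the wider set those at least 2-fold changed in any comparison with at least 5 FPKM. CTSV, CTSO and NPC2 of the wider set were named besides. Low values were examined for steps of whole fragments: among 2277 genes under 0.3 FPKM in Scr and RCC2 KO, the commonest ratio held for 60 genes (2.63%), and the depth is unknown. FPKM estimates assign shared fragments by model, which affects merged positions and gene copies. Calculations were tested on simulated data. Alternatives were pseudocounts, filters, scalings and a 1.5-fold minimum. Python 3.11.15, NumPy 2.4.6, pandas 2.3.3 and matplotlib 3.10.9 were used.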

Additional observations from a re-analysis of the deposited data

How the results depend on the processing

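No paired analysis was possible because the table holds 1 value per condition, and for the same reason no replicate could be left out. The median log2 difference of the members kept its sign under every alternative run. With quantile normalization it was 0.26 in CD24 KO against Scr and -0.52 in RCC2 KO against CD24 KO, and with the columns rescaled to the same sum it was 0.29 and -0.53. Equal sums also moved the median of all genes in CD24 KO from -0.03 to 0.11. Relative to all genes, the members lay 0.18 higher there in the main setting and with equal sums, and 0.26 higher with quantile normalization. Under equal sums, 31 members were higher in CD24 KO instead of 24. With a pseudocount of 0.1, 2 members (CTSF and IDUA) passed 2-fold in RCC2 KO against Scr, and with a pseudocount of 5, 1 member (CTSB) did in CD24 KO. At 1.5-fold, 8 members passed in CD24 KO against Scr, 3 in RCC2 KO against Scr and 14 between the knockouts. Between the knockouts, 9 members passed 2-fold with quantile normalization or equal sums, 7 with a pseudocount of 0.1 and 5, without CTSK, with a pseudocount of 5. No member past 2-fold changed its sign. Depth is unknown, so no floor for low genes such as CTSS, IDUA and TFEB can be given.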
